A study of Mus musculus with 12 samples.

Results

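The insulin-like growth factor (IGF) system was examined in mouse adult fibroblasts (MAFs) as 10 genes: the ligands Igf1 and Igf2, the receptors Igf1r and Igf2r, and the binding proteins Igfbp2, Igfbp3, Igfbp4, Igfbp5, Igfbp6 and Igfbp7. They were taken by their role in the pathway and by name, from 49315 counted genes. IGF1 and IGF2 are secreted hormones related to insulin, and both act through IGF1R, a receptor tyrosine kinase that signals to growth and survival through PI3K and AKT. IGF2R instead carries IGF2 to the lysosome for breakdown, and the binding proteins hold the ligands outside the cell until proteases release them. Senescent cells are known for secreting many proteins, and several IGF binding proteins are among them.

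RNA-seq was performed on 12 libraries of primary MAFs cultured from ears of C57BL/6 wild-type (WT) mice and of Bmal1 -/- mice (KO). The paper describes the KO cells as deficient in BMAL1, a core transcription factor of the circadian clock. Cells of each genotype were sham irradiated (control) or given 20 Gy of X-rays to make them senescent. This gave 4 groups of 3 libraries (control and senescent WT cells, control and senescent KO cells), and all cells, controls included, were grown at 3% oxygen, treated with 100 nM dexamethasone to synchronise their clocks and collected 12 hours later. The labels do not say whether the 3 libraries of a group came from separate cultures or animals, so p-values measure the spread between these libraries, which may be technical.

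Levels are given in CPM (counts per 1000000 counts), on library totals of 23923030 to 31736083 counts scaled with TMM factors, a trimmed mean of log ratios. Arntl, the gene for BMAL1, averaged 31.5 ± 1.71 CPM in WT control, 36.1 ± 1.10 in WT senescent, 13.2 ± 1.82 in KO control and 26.6 ± 1.13 CPM in KO senescent libraries (SD, n = 3), and the genotypes overlapped in neither state. Its level rose with senescence in WT cells (log2 fold change 0.20) and in KO cells (1.02, adjusted p 1.96e-09). The KO rise was larger by 0.82, and both this difference and the WT rise had an adjusted p under 0.05. KO cells were lower than WT cells by 1.26 on the log2 scale in control (adjusted p 2e-09) and by 0.44 in senescent cells (adjusted p 0.000329). The paper reports that the Bmal1 transcript was lost in KO cells, whereas Arntl counts remained in all KO libraries here. Counts summed over a gene do not show which exons were read. Whether the KO transcripts encode BMAL1 was not tested. On principal components of the log2 CPM, WT control replicate 3 stood apart from the other WT controls, at 4.14 against −23.4 and −26.8 on the second and 45.1 against −10.5 and −16 on the fourth component, which held 9.95% and 4.57% of the variance. Without it, the interactions (the KO senescence change less the WT one) of Igf2 (−0.59, adjusted p 0.0744) and Igfbp2 (0.24, 0.0588) and the WT decrease of Igfbp6 (−0.34, 0.0599), described below, missed the threshold. All 10 fibroblast markers examined were detected in every library. With senescence 6 were higher and 4 lower in WT and 4 higher and 5 lower in KO cells. Dcn and Fap rose in both genotypes, by over 1 on the log2 scale, and Col1a1, Col1a2 and Col3a1 fell in both by over 1. The summed level, of which Col1a1 alone gave 7323 CPM on average in WT controls and 1750 CPM after senescence, was lower in senescent cells, at 9852 to 10260 CPM in WT senescent against 20020 to 20830 CPM in WT control libraries, and at 11740 to 12160 CPM in KO senescent against 24980 to 26340 CPM in KO control libraries. Of 9 chondrocyte markers, which ear cartilage could supply, 8 passed the filter on low counts and all 8 were lower with senescence in WT and in KO cells. Their summed level was 7563 to 9384 CPM in WT control, 2073 to 2399 CPM in WT senescent, 5015 to 6903 CPM in KO control and 665 to 769 CPM in KO senescent libraries. Matn1 was at 0 in all WT control libraries. Summed markers of keratinocytes, macrophages, endothelium and skeletal muscle stayed under 22 CPM and those of adipocytes under 71 CPM in every library. In bulk RNA, fewer cells of a type and less RNA per cell cannot be told apart. Each genotype was deposited as its own table, so genotype and table cannot be told apart in a comparison of KO with WT, whereas a shift common to one table cancels in the interaction.

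The promoters of 4 members are shown, because BMAL1 binds the E-box motif with its partner CLOCK and because AP-1 is the transcription factor the study examined in senescence. They are Igf2, with the largest senescence change, Igfbp7, the member called between genotypes in both states, and Igf2r and Igfbp2, the members in which an E-box was found. RefSeq (build GRCm38.p6) gave 14 windows for the 10 members, each of 300 bases from 250 before to 50 after a start site. Both strands were searched for the E-box CACGTG, which reads the same on both, and for the AP-1 motif TGACTCA or TGAGTCA. The 250 bases before the start are printed 5′ to 3′ on the gene's strand, with E-boxes in capitals. Igf2 is shown at the most upstream and the most downstream of its 4 start sites (chr7:142666817-142667066 and chr7:142657497-142657746, both minus strand).
Igf2, upstream start: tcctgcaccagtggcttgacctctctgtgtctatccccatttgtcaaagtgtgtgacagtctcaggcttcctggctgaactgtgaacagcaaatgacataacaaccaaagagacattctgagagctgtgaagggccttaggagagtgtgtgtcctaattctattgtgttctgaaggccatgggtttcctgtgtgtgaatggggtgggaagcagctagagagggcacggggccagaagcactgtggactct
Igf2, downstream start: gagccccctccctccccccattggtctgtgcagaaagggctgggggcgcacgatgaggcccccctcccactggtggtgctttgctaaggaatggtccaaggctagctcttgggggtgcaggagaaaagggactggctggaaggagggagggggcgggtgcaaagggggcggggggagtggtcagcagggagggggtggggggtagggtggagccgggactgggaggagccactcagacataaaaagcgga
The Igf2r (chr17:12769707-12769956, minus strand), Igfbp2 (chr1:72824230-72824479, plus strand) and Igfbp7 (chr5:77408046-77408295, minus strand) promoters read as follows.
Igf2r: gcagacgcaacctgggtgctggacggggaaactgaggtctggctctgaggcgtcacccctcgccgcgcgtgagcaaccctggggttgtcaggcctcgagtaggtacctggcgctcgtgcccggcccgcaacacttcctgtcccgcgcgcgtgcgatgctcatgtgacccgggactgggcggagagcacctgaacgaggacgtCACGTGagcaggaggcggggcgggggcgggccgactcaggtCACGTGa
Igfbp2: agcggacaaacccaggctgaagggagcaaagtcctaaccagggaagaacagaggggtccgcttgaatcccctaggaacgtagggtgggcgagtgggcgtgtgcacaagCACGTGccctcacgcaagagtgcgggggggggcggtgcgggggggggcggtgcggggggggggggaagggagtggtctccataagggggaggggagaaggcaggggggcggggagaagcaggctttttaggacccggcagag
Igfbp7: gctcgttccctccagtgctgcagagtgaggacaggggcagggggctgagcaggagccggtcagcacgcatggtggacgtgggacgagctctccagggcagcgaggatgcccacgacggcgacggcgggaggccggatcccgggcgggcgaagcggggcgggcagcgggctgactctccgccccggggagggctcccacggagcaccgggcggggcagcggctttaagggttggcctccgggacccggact
The E-box occurred in 2 of the 14 windows. In the Igf2r window it began 48 and 7 bases before the start site, and in the upstream Igfbp2 window 142 bases before it. The AP-1 motif occurred in 1 window, at a second, downstream start site of Igfbp2 (chr1:72825337-72825365, plus strand), where it is capitalised below and began 39 bases before the start.
Igfbp2, downstream start, AP-1 stretch: gaaacaaaactTGAGTCAgtgaccaccgg
No match overlapped another. Over all 32851 RefSeq windows of this length, 7.15% held the E-box and 5.2% the AP-1 motif. A match here is a description of these letters and not a measured binding site.

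All 10 members passed the filter on low counts, with 130 to 44430 counts per library. A member is said to be higher or lower where its adjusted p was under 0.05, and called where its log2 fold change was also over 1 in size. In WT cells, 7 of the 10 members were higher and 1 was lower in senescent than in control cells, where 29.2% and 27% of all 17416 genes tested were higher and lower. Only Igf2 was called, against 17.4% of all genes. In KO cells, 5 members were higher and 3 were lower, where 28.5% and 28.6% of all genes were. Igf2 was called higher and Igfbp5 lower, against 18.8% of all genes called. The median log2 fold change of the members was 0.30 in WT and 0.19 in KO cells, and that of all genes was 0.03 and −0.003. Libraries of senescent and control cells did not overlap for 8 members in either genotype. The share of all genes without overlap was not computed, so this count is not read as a trait of the members. Both genotypes' values are given per member below and in the plot of each library.

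**Figure D1:**
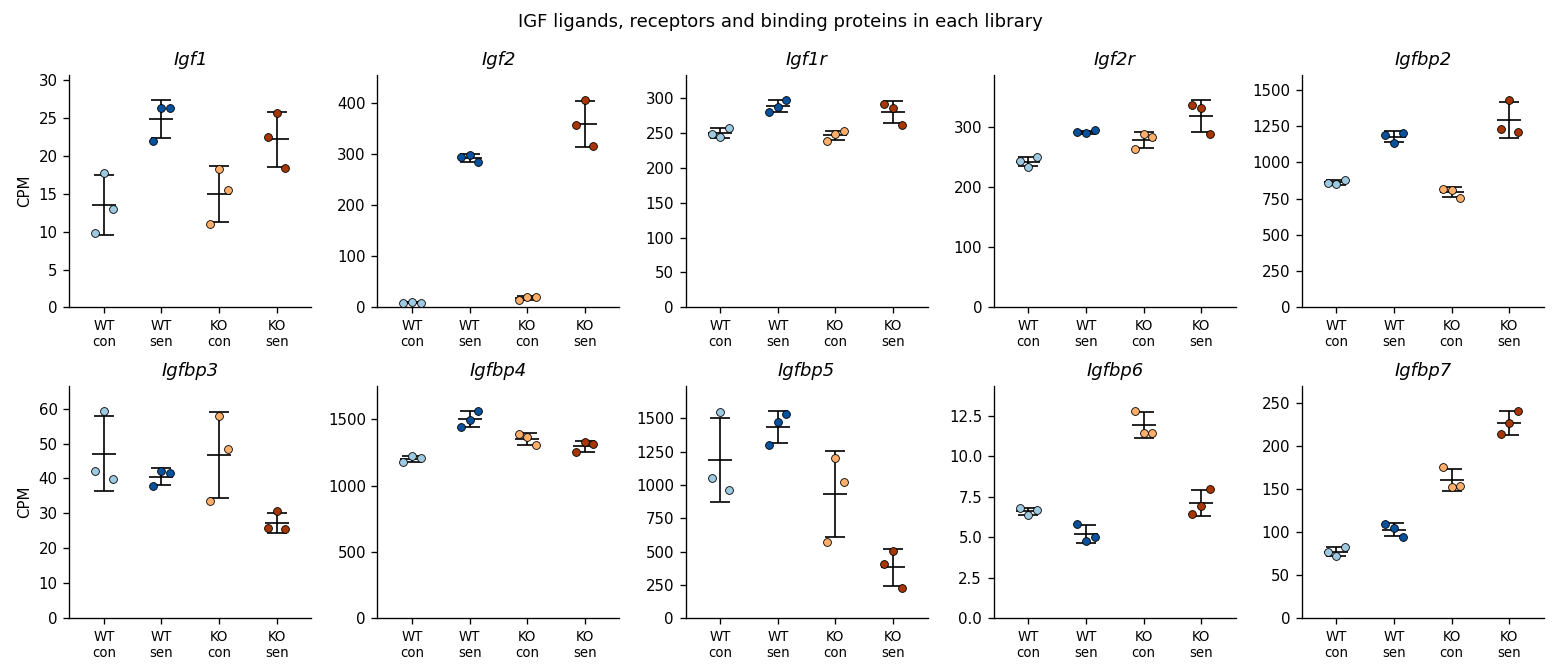
Level of each member in CPM (linear axes from 0) in the 3 libraries of each group (con, control; sen, senescent); points are libraries in replicate order and bars the mean ± SD. Igf2 rose from a mean of 9.77 to 292 CPM (WT) and from 18.4 to 360 CPM (KO), while Igfbp5 was at most 508 CPM in every KO senescent library.

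The ligand Igf2 showed the largest senescence change of the 10 members. Igf2 encodes a growth factor of the embryo that is imprinted and expressed from the paternal allele. WT control replicates 1 to 3 gave 9.29, 10.7 and 9.35 CPM and the WT senescent replicates 295, 299 and 284 CPM. KO libraries read 14.7, 19.9 and 20.7 CPM in control and 357, 407 and 316 CPM in senescent replicates. Every senescent library lay far above every control library, and every KO control library lay above every WT control library. The increase was 29.9-fold in WT cells (log2 fold change 4.90, SE 0.13, adjusted p 3.79e-12) and 19.6-fold in KO cells (4.29, SE 0.12, adjusted p 6.38e-12). The interaction was −0.61 (SE 0.17, adjusted p 0.0243), a smaller log2 rise in KO than in WT cells. In control cells Igf2 was 0.91 higher in KO than in WT on the log2 scale (SE 0.14, adjusted p 0.000781). In senescent cells the difference was 0.30 (SE 0.10, adjusted p 0.0523), and the lowest KO library, 316 CPM, was above the highest WT library, 299 CPM. The interaction missed the threshold without any one of WT control replicate 1 (−0.58, adjusted p 0.0659) or 3 (−0.59, 0.0744), senescent WT replicate 2 (−0.60, 0.0516), control KO replicate 2 (−0.55, 0.069) or 3 (−0.53, 0.0542), and senescent KO replicate 1 (−0.60, 0.0605). The senescent difference passed it without KO senescent replicate 3 (0.39, adjusted p 0.0111) and in 5 alternative fits, DESeq2 among them (adjusted p 1.22e-05 to 0.0357).

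Igf2 lies at chr7:142650766-142666816 on the minus strand of GRCm38 (ENSMUSG00000048583). Of its 5723 exon bases, 3596 (62.8%) also belong to the overlapping gene model Gm49394 on the same strand, which is not among the genes counted, and 98 belong to the antisense gene Igf2os. The methods describe no step that marks strand, and the use of strand in counting is not stated, so reads of Igf2 and Igf2os cannot be told apart where they overlap. Igf2os had at most 1 count in each control library and 49, 53 and 57 counts in WT senescent and 15, 46 and 46 counts in KO senescent replicates. Against the floor of 3 counts per control library, Igf2os was at least 13.9-fold higher in WT and at least 9.74-fold higher in KO senescent cells. These counts are small beside those of Igf2 itself, at 7362 to 11480 per senescent library.

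H19, a non-coding RNA gene imprinted in the opposite sense to Igf2, lies 72.6 kb from it. The H19 level was 144, 191 and 141 CPM in controls of WT cells and 163, 171 and 175 CPM in their senescent replicates, which overlap. The KO values were 224, 349 and 324 CPM in controls and 150, 194 and 139 CPM in senescent libraries, which do not. The log2 fold change with senescence was 0.10 in WT (adjusted p 0.711) and −0.89 in KO cells (SE 0.20, adjusted p 0.00428), and H19 was 0.91 higher in KO than in WT control cells (adjusted p 0.0184). The interaction of −0.99 (adjusted p 0.0387) missed the threshold without any one of 9 libraries, that is all but WT control replicate 2, KO control replicate 1 and KO senescent replicate 2 (−1.02 to −0.86, adjusted p 0.064 to 0.0913).

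The other ligand, Igf1, the mediator of growth hormone action and a growth factor for fibroblasts, rose in WT cells. In WT cells, the controls read 9.85, 17.8 and 13 CPM and the senescent libraries 22, 26.4 and 26.3 CPM. For KO, the controls gave 11, 18.2 and 15.5 CPM and the senescent libraries 22.4, 25.6 and 18.4 CPM. Senescent libraries were above control libraries in both genotypes, by the narrowest margin between KO senescent replicate 3 and KO control replicate 2. The log2 fold change was 0.88 in WT (SE 0.24, adjusted p 0.0101) and 0.56 in KO cells (SE 0.23, adjusted p 0.0654), with a 95% interval of 0.04 to 1.09 in KO cells. The interaction was −0.32 (95% interval −1.06 to 0.44, adjusted p 0.566), so that a difference between the genotypes was not detectable with this spread. Without WT control replicate 2 the WT change was 1.13 and Igf1 was called, and without KO control replicate 2 the KO change passed the threshold (0.74, adjusted p 0.0369), as it did in 4 alternative fits, DESeq2 among them (adjusted p 0.00211 to 0.0452). Igf1 (ENSMUSG00000020053, chr10:87858265-87937042, plus strand) did not differ past the threshold between KO and WT cells, at 0.15 in control (adjusted p 0.773) and −0.17 in senescent cells (adjusted p 0.648). The control difference was −0.04 without WT control replicate 1 and −0.03 without KO control replicate 2.

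Of the receptors, Igf1r, which transmits the IGF signal, rose slightly with senescence in both genotypes. WT libraries held 248, 244 and 257 CPM in control and 280, 286 and 297 CPM in senescent replicates. In the knockout, the levels were 239, 248 and 252 CPM in control and 291, 285 and 262 CPM in senescent libraries. No senescent library overlapped the controls of its genotype. Senescence log2 fold changes were 0.21 in WT (SE 0.05, adjusted p 0.00172) and 0.18 in KO cells (SE 0.05, adjusted p 0.00473). The interaction was −0.03 (95% interval −0.18 to 0.13, adjusted p 0.852), and KO differed from WT by −0.02 in control and −0.04 in senescent cells (adjusted p 0.872 and 0.587). These 3 small values changed sign under some settings, the interaction to 0.02 without KO senescent replicate 3. Igf1r (ENSMUSG00000005533) spans chr7:67952827-68233668 on the plus strand.

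Igf2r, the receptor that removes IGF2, also rose in both genotypes and carried the 2 E-boxes shown above. Control libraries of WT cells had 243, 234 and 250 CPM, and senescent ones had 291, 289 and 294 CPM. KO libraries read 264, 288 and 283 CPM in control and 336, 332 and 288 CPM in senescent replicates, so KO senescent replicate 3 overlapped the highest KO control library. On the log2 scale, the senescence change came to 0.27 in WT (SE 0.06, adjusted p 0.000473) and 0.19 in KO cells (SE 0.06, adjusted p 0.00643), with an interaction of −0.07 (adjusted p 0.579). In control cells Igf2r was 0.20 higher in KO than in WT (adjusted p 0.0237), and all KO libraries were above all WT libraries. That difference missed the threshold without any one of WT control replicate 1 (0.20, adjusted p 0.0726) or 2 (0.18, 0.0801), or KO control replicate 2 (0.18, 0.111) or 3 (0.19, 0.0898). In senescent cells the difference was 0.13 (adjusted p 0.114), and 0.20 (adjusted p 0.0112) without KO senescent replicate 3. It also passed under DESeq2 (0.16, adjusted p 0.032). Igf2r (ENSMUSG00000023830) lies at chr17:12682406-12769664, minus strand, in an imprinted region with the antisense RNA gene Airn, which fell by 0.43 in WT cells on the log2 scale (adjusted p 0.0402) and stood at −0.24 in KO cells (adjusted p 0.252). The Airn decrease was lost without any one of 5 WT libraries, that is all but senescent replicate 3, with −0.33 (adjusted p 0.167) at the least.

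By the threshold within each genotype, the 6 binding proteins divided into those that rose in both genotypes (Igfbp2 and Igfbp7), one that rose in WT cells (Igfbp4), one that fell in both (Igfbp6) and a pair that fell in KO cells (Igfbp3 and Igfbp5). This sorting is not a test between genotypes. The interaction passed for Igfbp4 (adjusted p 0.000477) but not for Igfbp3 (0.244) or Igfbp5 (0.0611). Per kilobase of exon, which allows levels to be compared between genes, Igfbp2 was the most abundant of the 10 members and Igfbp4 the next in every group, with no overlap between them. Igfbp2, a binding protein with an integrin-binding motif, reached 854, 853 and 882 CPM in the controls and 1192, 1137 and 1206 CPM in the senescent replicates of WT cells. The KO values were 813, 812 and 753 CPM in controls and 1230, 1432 and 1212 CPM in senescent libraries. All senescent libraries were above all control libraries. Against control, senescent cells stood at a log2 fold change of 0.45 in WT (SE 0.06, adjusted p 1.08e-06) and 0.70 in KO cells (SE 0.06, adjusted p 1.32e-09). The rise was larger in KO cells by the interaction (0.26, SE 0.08, adjusted p 0.0311), although KO differed from WT in neither control (−0.12, adjusted p 0.184) nor senescent cells (0.13, adjusted p 0.106) past the threshold. The interaction missed the threshold without any one of 7 libraries, with adjusted p 0.0569 and 0.0588 without WT control replicates 1 and 3, 0.0573, 0.102 and 0.0527 without WT senescent replicates 1, 2 and 3, 0.11 without KO control replicate 3 and 0.112 without KO senescent replicate 2, where it was 0.17. Without KO senescent replicate 3 the senescent genotype difference was 0.18 (adjusted p 0.0434), and it also passed under DESeq2 (0.16, adjusted p 0.0357). Igfbp2 (ENSMUSG00000039323) spans chr1:72824503-72852474 on the plus strand.

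**Figure D2:**
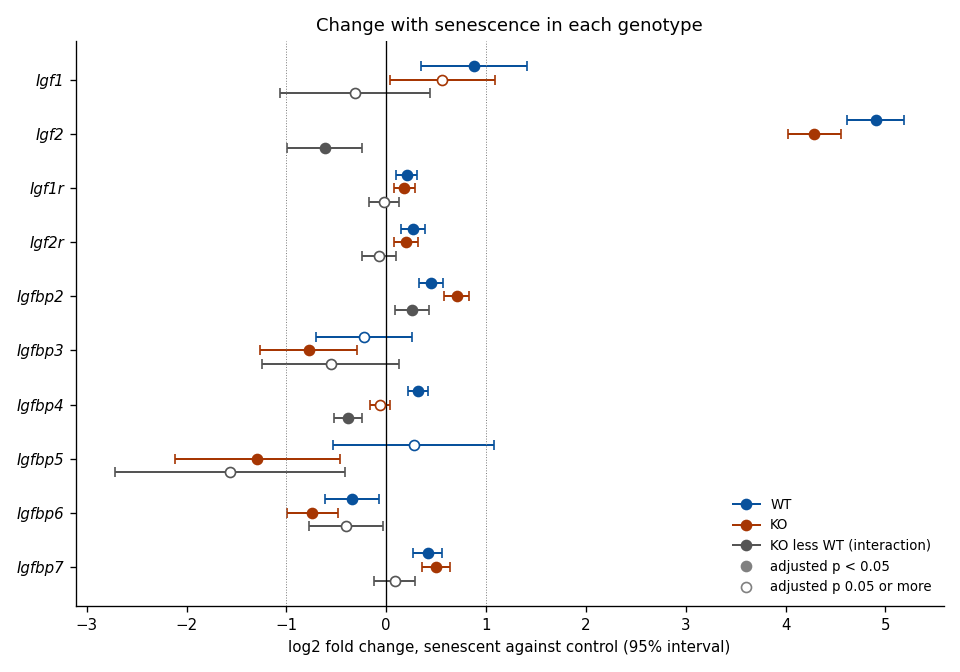
Log2 fold change of each member, senescent against control, in WT and KO cells, and the interaction (KO change less WT change), with 95% intervals from the fit; filled points have an adjusted p under 0.05 and dotted lines mark the size of 1 used for calls. Igf2 stands at 4.90 and 4.29, and Igfbp4 is filled for WT (0.32) and the interaction (−0.38) but not for KO (−0.06).

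Igfbp4, an inhibitor of IGF action that the protease PAPP-A cleaves, showed the clearest difference between genotypes in its senescence change. WT control replicates 1 to 3 gave 1175, 1219 and 1207 CPM and the WT senescent replicates 1440, 1496 and 1565 CPM. For KO, the controls gave 1389, 1368 and 1302 CPM and the senescent libraries 1251, 1327 and 1310 CPM. WT senescent libraries were above all others, whereas KO control and KO senescent libraries overlapped. The log2 fold change was 0.32 in WT (SE 0.05, adjusted p 7.13e-06) and −0.06 in KO cells (SE 0.05, adjusted p 0.283), and the interaction was −0.38 (SE 0.07, adjusted p 0.000477). Leaving out each library in turn kept the interaction at −0.42 to −0.35 with adjusted p of at most 0.00344. KO cells were 0.17 higher than WT cells in control (adjusted p 0.0197) and lower in senescent cells (−0.21, adjusted p 0.00261). The control difference missed the threshold without WT control replicate 1 (0.16, adjusted p 0.0972) or KO control replicate 2 (0.17, 0.0772). Igfbp4 (ENSMUSG00000017493) lies at chr11:99041244-99054392, plus strand.

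Igfbp5, which binds extracellular matrix as well as IGFs and is known in bone and cartilage, varied most between replicates, with a coefficient of variation of up to 36.9% within a group. In WT cells, the controls read 1050, 1550 and 962 CPM and the senescent libraries 1299, 1474 and 1533 CPM. In the knockout, the levels were 574, 1200 and 1021 CPM in control and 406, 508 and 230 CPM in senescent libraries. WT control and senescent libraries overlapped, while all KO senescent libraries lay below every other library, the nearest being KO control replicate 1. Senescence log2 fold changes were 0.27 in WT (SE 0.35, adjusted p 0.547) and −1.29 in KO cells (SE 0.36, adjusted p 0.0139). In senescent cells Igfbp5 was lower in KO than in WT (log2 difference −1.91, SE 0.37, adjusted p 0.0057), whereas in control cells the difference was −0.35 (SE 0.35, adjusted p 0.607). The interaction was −1.56 (SE 0.50, 95% interval −2.72 to −0.41) and missed the threshold after adjustment (adjusted p 0.0611). It passed without control KO replicate 1 (−1.82, adjusted p 0.0245) or senescent KO replicate 2 (−1.83, 0.046) and under DESeq2 (−1.53, 0.0085), and the KO decrease was lost without KO control replicate 2 (−1.07, adjusted p 0.0501) and when fitted on the libraries of both KO groups alone (−1.28, 0.0699). The senescent genotype difference held without each library in turn, at −2.18 to −1.65 with adjusted p of at most 0.0217. The summed chondrocyte markers, detailed above, were also lowest in KO senescent libraries, and 8 of 8 tested were lower there than in senescent WT cells. Their part in the Igfbp5 result was not tested.

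Igfbp5 (ENSMUSG00000026185, chr1:72857932-72874884, minus strand) is the genomic neighbour of Igfbp2, and the 3′ ends of the 2 genes are 5457 bases apart. In KO cells the neighbours moved in opposite directions with senescence, Igfbp2 by 0.70 and Igfbp5 by −1.29.

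Igfbp3, the main carrier of IGFs in blood, was a minor transcript here and fell in KO cells. WT libraries held 42.0, 59.4 and 39.9 CPM in control and 37.7, 42.2 and 41.5 CPM in senescent replicates. KO libraries read 33.7, 58.0 and 48.5 CPM in control and 25.7, 30.6 and 25.6 CPM in senescent replicates. The WT groups overlapped and the KO groups did not. On the log2 scale, the senescence change came to −0.22 in WT (SE 0.21, adjusted p 0.408) and −0.78 in KO cells (SE 0.21, adjusted p 0.0124), with an interaction of −0.56 (95% interval −1.24 to 0.13, adjusted p 0.244) that passed the threshold without KO control replicate 1 (−0.75, adjusted p 0.0455). Between genotypes Igfbp3 differed by −0.01 in control (adjusted p 0.985; 0.19 without WT control replicate 2 and 0.18 without KO control replicate 1) and by −0.57 in senescent cells (adjusted p 0.0946). The senescent difference passed under DESeq2 (−0.54, adjusted p 0.0443) and when fitted on the senescent libraries alone (−0.56, 4.16e-05). It also passed with a replicate block across all groups (−0.57, adjusted p 0.00441). Igfbp3 (ENSMUSG00000020427, chr11:7206086-7213923, minus strand) lies 3539 bases from Igfbp1, which had 0 counts in all 12 libraries.

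Igfbp6, a binding protein that prefers IGF2, was the member with the fewest counts of all. Control libraries of WT cells had 6.80, 6.35 and 6.68 CPM, and senescent ones had 5.85, 4.78 and 5.02 CPM. The KO values were 12.8, 11.4 and 11.5 CPM in controls and 6.44, 6.95 and 7.97 CPM in senescent libraries. KO control libraries stood above all others, and senescent libraries were below control libraries in both genotypes. Against control, senescent cells stood at a log2 fold change of −0.34 in WT (SE 0.13, adjusted p 0.0309) and −0.74 in KO cells (SE 0.12, adjusted p 2.47e-05), with an interaction of −0.40 (adjusted p 0.123). The WT decrease missed the threshold without WT control replicate 1 (−0.32, adjusted p 0.0781) or 3 (−0.34, 0.0599), without WT senescent replicate 2 (−0.28, 0.122) or 3 (−0.32, 0.0872), and without a filter on low counts (−0.35, 0.0621). Igfbp6 was higher in KO than in WT by 0.85 in control (SE 0.12, adjusted p 6.64e-05) and by 0.45 in senescent cells (SE 0.13, adjusted p 0.0131). The senescent difference was lost without WT senescent replicate 2 (0.39, adjusted p 0.0759) or 3 (0.42, 0.056) or KO senescent replicate 3 (0.36, 0.0847). Igfbp6 (ENSMUSG00000023046) lies at chr15:102144362-102149511, plus strand.

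Igfbp7, a secreted protein that binds IGFs weakly and is known as a product of senescent cells, was higher in KO than in WT cells throughout. WT control replicates 1 to 3 gave 76.9, 72.3 and 83.0 CPM and the WT senescent replicates 110, 105 and 94.5 CPM. For KO, the controls gave 176, 152 and 154 CPM and the senescent libraries 214, 227 and 242 CPM. The 4 groups did not overlap, and their order from low to high was control then senescent WT cells, followed by control then senescent KO cells. KO exceeded WT by 1.06 on the log2 scale in control (SE 0.07, adjusted p 2.44e-09) and by 1.14 in senescent cells (SE 0.07, adjusted p 8.13e-10). Without KO control replicate 1 the control difference was 0.99, under the size for a call, and in that fit Igf2 was called in its place (1.05, adjusted p 9.05e-07). Senescence raised Igfbp7 by 0.41 in WT (SE 0.07, adjusted p 4.36e-05) and, in KO cells, by 0.50 (SE 0.07, adjusted p 2.96e-06), with an interaction of 0.09 (95% interval −0.12 to 0.29, adjusted p 0.592). Igfbp7 (ENSMUSG00000036256, chr5:77349240-77408041, minus strand) shares 85 exon bases (7.03%) with Polr2b on the other strand. Reads in those bases cannot be told apart without strand.

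To compare the genotypes directly, KO was set against WT within control and within senescent cells. In control cells 5 members were higher in KO (Igf2, Igf2r, Igfbp4, Igfbp6 and Igfbp7) and 0 were lower, where 8.07% and 4.96% of all genes tested were. Igfbp7 alone was called, against 2.54% of all genes. In senescent cells 2 members were higher (Igfbp6 and Igfbp7) and 2 were lower (Igfbp4 and Igfbp5), where 11.9% and 11.8% of all genes were, and Igfbp7 and Igfbp5 were called, against 3.48%. The median log2 difference of the members was 0.16 in control and 0.04 in senescent cells, and that of all genes was 0.01 and −0.02. By the interaction 1 member was higher (Igfbp2) and 2 were lower (Igf2 and Igfbp4), where 9.24% and 11.7% of all genes were, and 0 were called, against 3.66%. At an unadjusted p under 0.05 the interaction of 5 members passed, those 3 with Igfbp5 and Igfbp6, and DESeq2 called 1, Igfbp5. Shares of all genes at that unadjusted p and under DESeq2 were not computed, so these counts have no background beside them. The members' median interaction was −0.35, and that of all genes −0.03. These comparisons share groups with the senescence comparisons and are not independent of them.

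**Figure D3:**
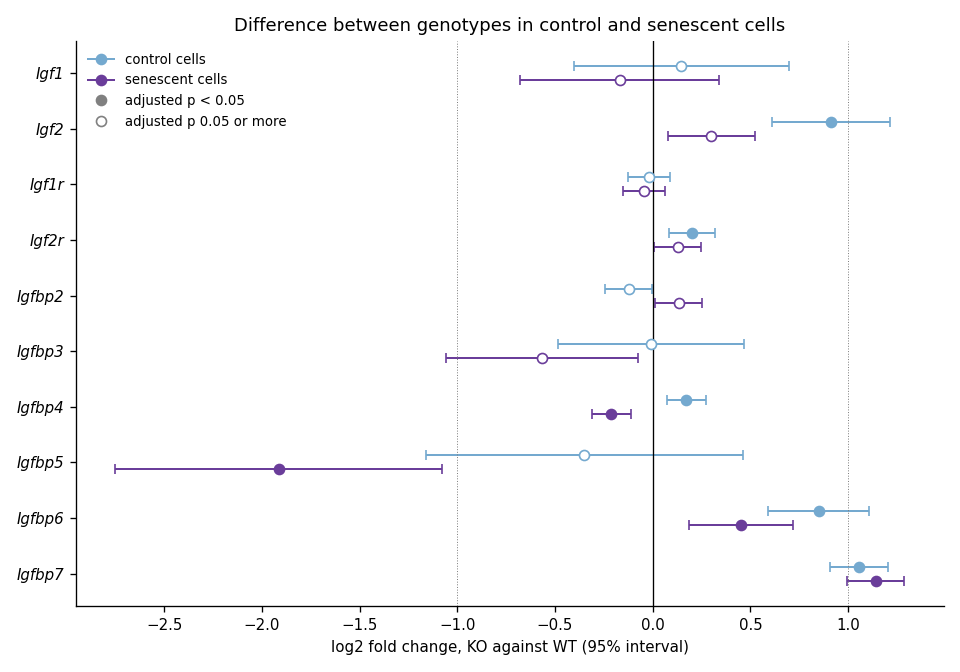
Log2 fold change of each member, KO against WT, in control and in senescent cells, with 95% intervals from the fit; filled points have an adjusted p under 0.05 and dotted lines mark the size of 1 used for calls. Igfbp7 lies near 1 in both states (1.06 and 1.14), Igfbp5 at −1.91 in senescent cells, and Igfbp4 is on opposite sides of 0 (0.17 and −0.21).

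The make-up of the binding protein transcripts was then described per kilobase of exon, as each gene's share of the summed CPM per kilobase of the 6 binding proteins. Igfbp2 held 45.8% in WT control, 48.4% in WT senescent, 40.9% in KO control and 55.5% in KO senescent cells, as means of 3 libraries. Igfbp4 held 26.6%, 25.7%, 29.2% and 23.4% in the same order. Igfbp5 held 19.2%, 18.1%, 14.7% and 4.99%, and its range over KO senescent libraries (3.17% to 6.2%) lay below that of KO control libraries (9.38% to 18.1%). Igfbp7 held 6.28%, 6.47%, 12.7% and 15%. Igfbp7 was thus above Igfbp5 in KO senescent cells, at 188 ± 11.5 against 63.4 ± 23.4 CPM per kilobase (SD, n = 3), while in KO control cells the ranges of the pair overlapped.

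**Figure D4:**
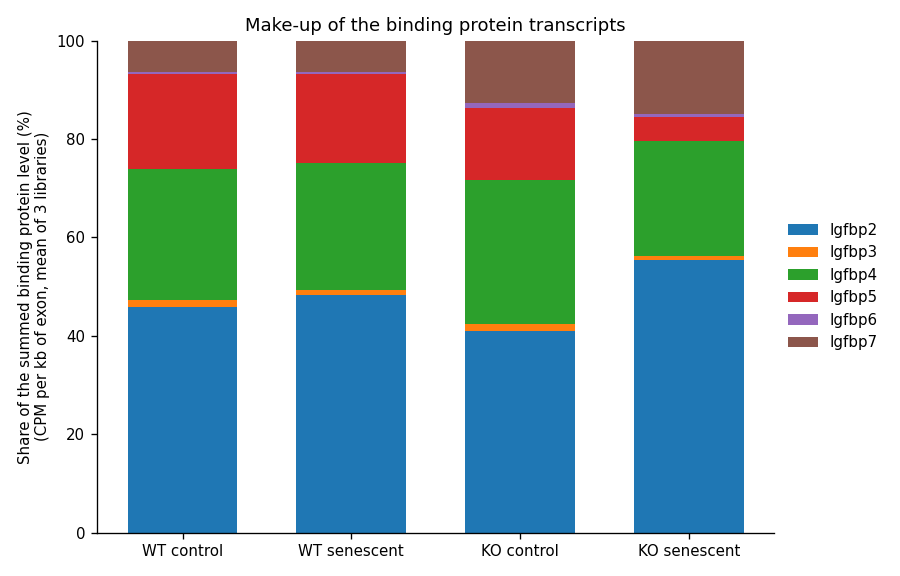
Mean share of each binding protein in the summed level of the 6 binding proteins (CPM per kilobase of exon, stacked to 100%) in each group of 3 libraries. The Igfbp5 share is 4.99% in KO senescent cells against 14.7% to 19.2% in the other groups, and the Igfbp2 share is 55.5% there.

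Among the ligands and receptors, Igf2 changed its place in the order of levels per kilobase. It ranked 9 of 10 in control cells of both genotypes, at 1.71 ± 0.14 in WT and 3.22 ± 0.57 CPM per kilobase in KO, and 5 of 10 in senescent cells, at 51.1 ± 1.33 and 62.9 ± 7.96 CPM per kilobase (SD, n = 3). In control cells both receptors exceeded Igf2 per kilobase. In senescent cells Igf2 exceeded both, since Igf2r stood at 31.3 ± 0.27 in WT and 34.2 ± 2.85 CPM per kilobase in KO and Igf1r at 17.1 ± 0.52 and 16.6 ± 0.93. The ranges of Igf2 and Igfbp5 overlapped in KO senescent cells. Igf1 ranked last in every group, at 1.37 to 2.51 CPM per kilobase on average, and overlapped Igf2 in WT control cells. Igfbp3 and Igf1r overlapped in control cells of both genotypes.

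Proteases of the binding proteins, inhibitors of these proteases, the carrier Igfals and other IGFBP-like genes were examined as a list of 9 genes, of which 7 passed the filter on low counts. In WT cells 5 of the 7 were higher with senescence and 0 lower, where 29.2% and 27% of all genes were, and 2 were called, against 17.4%. In KO cells 4 were higher and 0 lower, where 28.5% and 28.6% of all genes were, and 0 were called, against 18.8%. Both counts of higher genes include Stc1 and Stc2, whose products inhibit PAPP-A. The median log2 fold change was 0.58 in WT and 0.49 in KO cells. Pappa encodes PAPP-A, the protease that cleaves IGFBP4 and IGFBP5. Replicates 1 to 3 gave 50.5, 57.8 and 51.9 CPM in WT controls, 167, 178 and 166 CPM in senescent WT cells, 97.2, 117 and 122 CPM in KO control and 204, 207 and 138 CPM in KO senescent replicates. The rise was 1.67 in WT (SE 0.15, adjusted p 7.62e-06) and 0.71 in KO cells (SE 0.15, adjusted p 0.00234), with an interaction of −0.96 (SE 0.21, adjusted p 0.0114) and a control level 1.07 higher in KO than in WT (adjusted p 0.00158). Pappa2, its relative, which cleaves IGFBP3 and IGFBP5, went from 2.21, 2.85 and 2.66 CPM to 12.9, 11 and 12.6 CPM in WT replicates. In KO replicates it was at 9.52, 13.1 and 11.6 CPM in control and 13, 14 and 8.04 CPM in senescent cells, so that WT control libraries stood apart below the other 3 groups, which overlapped. Its log2 fold change was 2.24 in WT (SE 0.20, adjusted p 3.16e-08) and 0.03 in KO cells (SE 0.17, adjusted p 0.89; −0.13 to 0.24 with 1 library left out), and its interaction was −2.21 (SE 0.26, adjusted p 3.3e-05).

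Htra1, a secreted serine protease with IGFBP5 among its substrates, rose in both genotypes, from 77.5 ± 0.787 to 108 ± 0.93 CPM with BMAL1 present and in KO cells from 112 ± 5.62 to 205 ± 12.0 CPM (SD, n = 3). Unlike Pappa and Pappa2, it rose more in KO than in WT cells (0.87 against 0.48, interaction 0.39, SE 0.08, adjusted p 0.000919), and KO was above WT in senescent cells by 0.92 (adjusted p 1.69e-10). Stc2, which encodes stanniocalcin-2, an inhibitor of PAPP-A, rose by 0.91 in WT (SE 0.08, adjusted p 7.75e-09) and, in KO cells, by 0.65 (SE 0.09, adjusted p 1.48e-06), and was lower in senescent KO than in senescent WT cells (−0.54, adjusted p 5.06e-05). Igfals, the subunit that holds IGFs in the circulation, had 3 to 16 counts and Igfbpl1 at most 3 counts in any library. Igfbp1 had 0 counts in every library, which allows at most 3 counts, or 0.0945 to 0.125 CPM on unscaled totals.

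**Figure D5:**
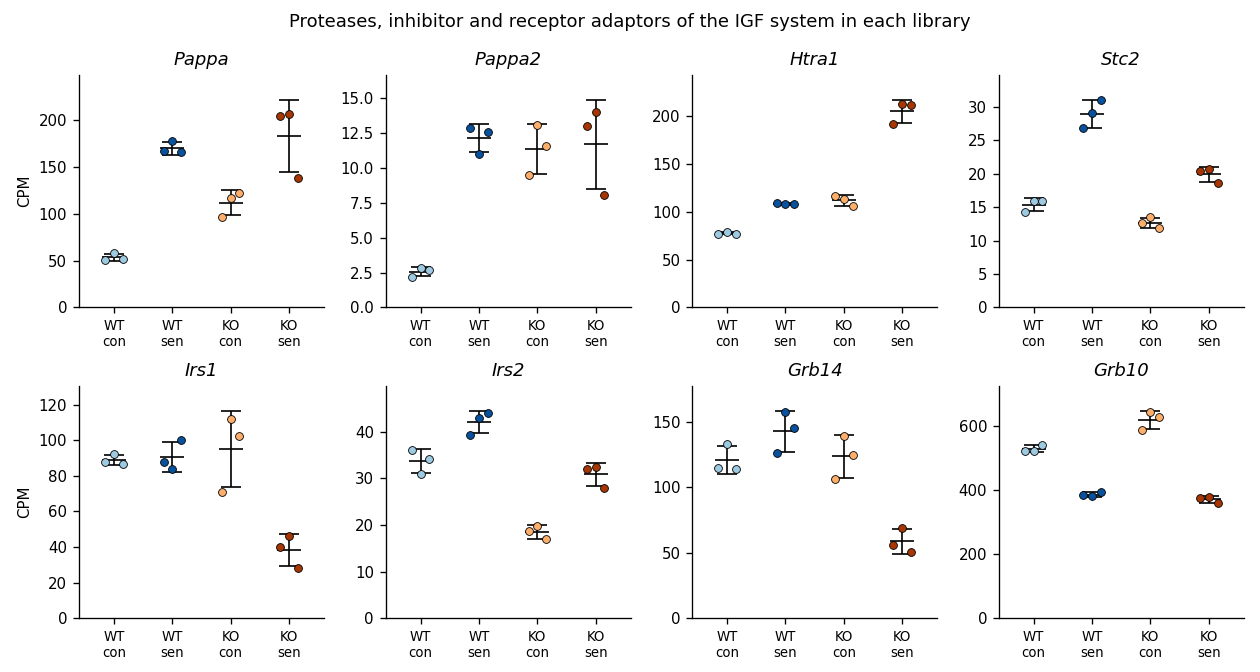
Level in CPM (linear axes from 0) of the proteases Pappa, Pappa2 and Htra1, the PAPP-A inhibitor Stc2 and the adaptors Irs1, Irs2, Grb14 and Grb10 in each library; points are libraries in replicate order and bars the mean ± SD of 3. Pappa2 is near 2.57 CPM in WT control cells and near 11 to 12 CPM in the other groups, while Irs1 and Grb14 are lowest in KO senescent cells.

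Of 9 relatives and adaptors of the receptor, 7 were tested. With senescence 1 was higher and 1 lower in WT cells, where 29.2% and 27% of all genes were. In KO cells 2 were higher and 3 lower, where 28.5% and 28.6% of all genes were, and 2 were called, against 18.8%. Irs1, the docking protein that links the activated receptor to PI3K, stood at 87.9, 92.2 and 86.7 CPM in WT controls, 87.9, 83.8 and 100.2 CPM in senescent WT cells, 70.9, 112 and 103 CPM in KO control and 40.3, 46.4 and 28.5 CPM in KO senescent replicates. Only the KO senescent libraries stood apart, below all others. The log2 fold change was 0.03 in WT (adjusted p 0.925; −0.05 without WT senescent replicate 3) and −1.31 in KO cells (SE 0.21, adjusted p 0.000525), with an interaction of −1.34 (SE 0.29, adjusted p 0.0116). Grb14, an adaptor that inhibits insulin receptor signalling, showed the same shape, with 121 ± 10.9 and 143 ± 15.7 CPM in control and senescent WT cells and 123 ± 16.3 and 58.6 ± 9.43 CPM in the KO counterparts (SD, n = 3). Its log2 fold change was 0.24 in WT (adjusted p 0.156) and −1.07 in KO cells (SE 0.14, adjusted p 7e-05), with an interaction of −1.32 (SE 0.19, adjusted p 0.00119). The Grb14 decrease was −0.98, under the size for a call, when either control KO replicate 2 or senescent KO replicate 3 was left out.

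Irs2, the other main docking protein, moved the opposite way, with a rise of 0.32 in WT (SE 0.08, adjusted p 0.00165) and 0.73 in KO cells (SE 0.08, adjusted p 1.81e-07). It was lower in KO than in WT in both states, by −0.86 in control (adjusted p 3.3e-07) and −0.45 in senescent cells (adjusted p 0.000246). Its interaction of 0.41 (adjusted p 0.0146) was lost without WT control replicate 1 (0.36, adjusted p 0.0523) or KO control replicate 3 (0.35, 0.0554). Grb10, an imprinted adaptor that restrains growth, fell by 0.45 in WT (SE 0.05, adjusted p 6.1e-08) and, in KO cells, by 0.74 (SE 0.05, adjusted p 2.78e-11) on the log2 scale, with an interaction of −0.29 (adjusted p 0.00473). Insr, the insulin receptor, differed by 0.06 in WT (95% interval −0.07 to 0.19, adjusted p 0.428) and −0.02 in KO cells (−0.14 to 0.11, adjusted p 0.841; 0.05 without KO senescent replicate 3).

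Igf2 mRNA-binding proteins and imprinted RNAs were followed as a list of 6, all tested. With senescence 1 was higher and 3 lower in WT cells (29.2% and 27% of all genes) and 1 higher and 2 lower in KO cells (28.5% and 28.6% of all genes). Igf2bp2, which binds Igf2 mRNA, fell from 66.8 ± 5.67 to 32.3 ± 1.07 CPM in WT (log2 fold change −1.05, SE 0.07, adjusted p 9.26e-11) and from 70.0 ± 6.77 to 35.7 ± 0.883 CPM in KO cells (−0.97, SE 0.07, adjusted p 2.42e-10; SD, n = 3). Igf2bp1 fell by 0.99 in WT on the log2 scale (adjusted p 0.000366), and its KO value was −0.15 (adjusted p 0.56). The Igf2bp1 interaction of 0.84 (adjusted p 0.0465) was lost without each library but WT control replicate 2, where it was 1.06, with 0.59 (adjusted p 0.141) at the least, without WT control replicate 3. The 29.9-fold and 19.6-fold higher level of Igf2 was measured in cells in which Igf2bp2 was lower.

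Of 18 steps from PI3K to AKT, FOXO and mTOR, all tested, 7 were higher and 6 lower with senescence in WT cells (29.2% and 27% of all genes) and 6 higher and 5 lower in KO cells (28.5% and 28.6% of all genes), and the median log2 fold change was 0.04 for each genotype. Foxo3, a transcription factor that AKT keeps out of the nucleus, rose from 51.4 ± 1.08 to 102 ± 4.99 CPM in WT (log2 fold change 0.99, SE 0.06, adjusted p 2.92e-12) and from 68.2 ± 2.18 to 99.7 ± 4.75 CPM in KO cells (0.55, SE 0.05, adjusted p 2.2e-08), with an interaction of −0.44 (adjusted p 0.000466). Eif4ebp1, a translation repressor that mTOR inhibits, fell by 0.95 in WT cells (SE 0.06, adjusted p 3.29e-11) and, in KO cells, by 0.18 (SE 0.06, adjusted p 0.0137) on the log2 scale, with an interaction of 0.77 (SE 0.09, adjusted p 7.81e-06). The KO decrease was lost when control KO replicate 1 (−0.14, adjusted p 0.0652) was left out, or senescent KO replicate 1 (−0.14, 0.0789) or 2 (−0.16, 0.0615). Pik3cb, a catalytic subunit of PI3K, fell by 0.79 in WT (adjusted p 1.25e-08) and 0.59 in KO cells (adjusted p 8.12e-07) on the log2 scale. Of the 18, 1 was called in WT cells, against 17.4% of all genes, and 0 in KO cells, against 18.8%. The called gene, Pik3r1, rose by 1.09 in WT (SE 0.12, adjusted p 1.24e-05) and stood at 0.002 in KO cells (adjusted p 0.992). Its interaction was −1.085 (SE 0.17, adjusted p 0.00128).

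Genes whose pattern over the 12 libraries was most like that of a member were found by Pearson's r of log2 CPM among 10946 tested genes of at least 5 CPM on average. For Igf2 these were Tcn2 (r = 0.998), Cdc42bpg (0.997) and Ano3 (0.997). Tcn2, which encodes the vitamin B12 carrier transcobalamin, averaged 15.9 and 78.4 CPM in control and senescent WT cells, and 20.4 and 87.7 CPM in the KO counterparts. For Igfbp5 they included Iqsec1 (r = 0.980) and the pseudogene AA414768 (0.976). For Igfbp7 they were Mfap5 (r = 0.980), a microfibril protein, Ociad2 (0.978) and Crabp1 (0.970), and all 3 had their lowest mean in WT control and their highest in KO senescent cells. Among the members themselves Igf2 and Igfbp2 varied together most closely (r = 0.93), followed by Igf2 and Igf1r (0.88) and Igf1r and Igfbp2 (0.87). Igfbp3 and Igfbp5 also varied together (r = 0.84), and Igfbp5 and Igfbp7 varied inversely (r = −0.82). In senescent cells Igf1 and Igfbp3 were highest in replicate 2 of both genotypes. In WT their margin over replicate 3 was small, at 26.36 against 26.32 CPM for Igf1 and 42.2 against 41.5 CPM for Igfbp3. Igf1, Igfbp3 and Igfbp5 were each highest in replicate 2 of both control groups. So were H19 (191 CPM in WT and 349 CPM in KO control replicate 2) and, of the 8 chondrocyte markers tested, 8 in WT control and 7 in KO control cells, with Col2a1 at 5563 and 3491 CPM in replicate 2. Their part in the values of these members was not tested. The libraries share their group structure, so these values describe likeness over 12 libraries and carry no test.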

How the data were processed

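Counts of 12 RNA-seq libraries of primary MAFs were used, 3 in each of 4 groups, with every library placed in its group by its label. The deposited values were raw counts, whole numbers per gene and library, in 2 tables of the same 49315 genes, 1 table per genotype. The authors enriched poly(A) RNA, prepared libraries with a NEBNext Ultra II kit, trimmed reads with Trimmomatic 0.36, mapped them with STAR 2.5.2b to GRCm38 (versions from the submitters' processing notes) and counted uniquely mapped reads in exons. The use of strand and the annotation release are not given in the sources used here, so counts of overlapping genes are uncertain.

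Symbols and coordinates of 48970 genes came from a GENCODE annotation of GRCm38 and promoter windows from RefSeq. Totals ranged from 23923030 to 31736083 counts. At that depth 3 counts, used as the floor, equalled 0.0945 to 0.125 CPM (counts per 1000000), and floors cover counting error only, since reads carried no molecular identifiers. TMM factors were 0.926 to 0.967 in control and 1.04 to 1.07 in senescent libraries, and over all tested genes the within-group coefficient of variation had a median of 8.56%.

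For the tests, edgeR 4.0.16 was used under R 4.3.3. The filter was filterByExpr with the 4 groups, which kept 17416 genes, and a robust quasi-likelihood fit with 1 mean per group and TMM factors was made over all 12 libraries. The 5 comparisons were tested by the quasi-likelihood F-test with Benjamini-Hochberg adjustment over all genes, and every adjusted p comes from this test unless another fit is named. The script that ran these tests was checked on simulated counts. SE is the size of the log2 fold change divided by the square root of F, and 95% intervals use the t distribution of the fit. The thresholds, adjusted p under 0.05 and log2 fold change over 1 in size, are those the study's methods state.

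Alternatives were DESeq2 1.42.0, its size factors within edgeR, no filter on low counts, only the libraries of both groups, a replicate block within genotype or across all groups, and leaving out each library in turn. Members and lists were chosen with earlier results of these data known. All members were named, with at most 4 genes of each of 4 partner lists (the smallest p with senescence) and H19, Grb10, Airn and Insr, and for likeness the 3 genes with the highest r, of log2 CPM (prior count 2). Pik3r1 was named outside this rule, as the only called gene of the steps from PI3K to mTOR. Some genes that this rule names are not reported here. Exon length is the union of annotated exons.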

Additional observations from a re-analysis of the deposited data

Results flagged for a closer look

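For 3 members the senescence change differed between genotypes by the test of the difference itself, the interaction of edgeR's quasi-likelihood fit with Benjamini-Hochberg adjustment over 17416 genes. Of these, 1 was higher and 2 were lower, where 9.24% and 11.7% of all genes were, so the count is not read as a trait of the members. Igfbp4, an inhibitor of IGF action, differed by −0.38 on the log2 scale (SE 0.07, adjusted p 0.000477), with all 3 WT senescent libraries above all 3 WT control libraries and overlapping libraries in KO cells. Igf2 differed by −0.61 (SE 0.17, adjusted p 0.0243), a smaller rise in KO cells from a control level that was higher in all 3 KO libraries. Igfbp2 differed by 0.26 (SE 0.08, adjusted p 0.0311), a larger rise in KO cells. The Igf2 and Igfbp2 values missed the threshold without any one of 6 and of 7 libraries. With 3 libraries a group, no test for a single outlying library was run.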

How the results depend on the processing

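Of 571 values recomputed under alternatives other than leaving out a library, 542 kept their direction and side of the threshold, and of 780 with 1 library left out, 701 did. The causes of the changes were not tested. Called members numbered 1 with KO senescence in a fit of both groups' libraries only, and 1 in the interaction under DESeq2 and under the replicate block across all groups, both Igfbp5. Members past the adjusted p numbered 5 in the interaction under that replicate block and 8 in KO against WT senescent cells under DESeq2. Shares of all genes were not computed under these alternatives or with a library left out. With 1 library left out, called members ranged from 1 to 2 with WT senescence, 1 to 2 with KO senescence and 0 to 1 in the interaction, and members past the adjusted p from 1 to 5 in the interaction and from 3 to 5 in KO against WT control cells.

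Over all tested genes, same-numbered libraries did not deviate together (correlations −0.13 to 0.11 within genotype, 1 of 6 over 0.1, and 4 of 12 libraries nearest to their own number), so the numbers are not taken as pairs. This need not hold for Igf1, Igfbp3 and Igfbp5, each of which was highest in replicate 2 of both control groups. With the replicate block within genotype, Igf1 in KO senescence had an adjusted p of 0.00457 and the Igfbp3 interaction 0.0464. With the block across all groups these were 0.00211 and 0.0357, and the Igfbp3 difference between senescent genotypes had an adjusted p of 0.00441.

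Values near 0 changed sign. The Igf1r interaction was 0.004 with DESeq2 size factors and 0.006 under DESeq2, Irs1 in WT senescence −0.007 with both groups' libraries only, and Insr in KO senescence 0.001 and 0.002 with DESeq2 size factors and DESeq2. With 1 library left out, ranges that crossed 0 were −0.051 to 0.018 (Igf1r interaction), −0.041 to 0.399 (Igf1, KO against WT control), −0.033 to 0.007 (Igf1r, KO against WT control), −0.198 to 0.194 (Igfbp3, KO against WT control), −0.072 to 0.002 (Igf1r, KO against WT senescent), −0.052 to 0.079 (Irs1, WT senescence), −0.127 to 0.241 (Pappa2, KO senescence), −0.065 to 0.047 (Insr, KO senescence) and −0.001 to 0.139 (Igf2bp2 interaction). With 3 libraries a group, the widest 95% interval of a member, that of the Igfbp5 interaction, ran from −2.72 to −0.41.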
